A study of Mus musculus with 8 samples.

Results

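Regions of open chromatin that were found in every library except those of Fn14 knockout (KO) mice were examined in mouse brain. ATAC-seq marks accessible DNA with cuts by the transposase Tn5, and here it gave 8 lists of peaks, 1 per library, and overlapping peaks of all lists were merged into 443327 regions. The KO-absent regions were those with a peak in each of the 6 other libraries and no peak in either KO library. There were 1586 of them, 0.358% of all regions. They were chosen by the presence and absence of peaks, so the lack of a KO peak is a definition here and was not tested.

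4 groups of 2 libraries were compared, all on the C57Bl/6J background. The Fn14 KO mice and their wild-type (WT) littermates were untreated and were taken at postnatal day 27. Their libraries came from frozen coronal sections, which the labels give as cortex, hippocampus and dLGN, the dorsal lateral geniculate nucleus that relays vision through the thalamus. The other mice gave microdissected dLGN at postnatal day 32, after PLX5562 chow (PLX chow), meant to deplete microglia, or control chow from postnatal day 20. Each aliquot held 50000 nuclei with no sorting of cell types named. The labels do not say how Fn14 was deleted, in which cells, or how many animals a library holds, and the spread between 2 libraries may be technical. The WT sections shared tissue and age with the KO sections, while the 4 dLGN libraries differed from both in tissue, age and preparation, which cannot be told apart.

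Fn14 is the receptor for TWEAK, a cytokine of the TNF family that microglia can release, and is encoded by Tnfrsf12a. It has no enzyme activity of its own and signals through TRAF adaptors, the cIAP ubiquitin ligases and both branches of NF-kB. In the visual thalamus the pathway is known for its part in strengthening and removing synapses after eye opening.

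The sequences before the start of 3 genes whose start lies in a KO-absent region are shown because the deleted gene is among them and because their regions are among the 10 strongest KO-absent regions within 1 kb of a gene end. Each run is the 250 bases before the start, 5′ to 3′ on the gene's strand, from RefSeq (GRCm38.p6), with the bases inside the KO-absent region in capitals. Tnfrsf12a (chr17:23677450-23677699, minus strand) had 193 of 250 bases inside, Slc27a1 (chr8:71568621-71568870, plus strand) had 218 and Gpr179 (chr11:97352357-97352606, minus strand) had all 250.
Tnfrsf12a: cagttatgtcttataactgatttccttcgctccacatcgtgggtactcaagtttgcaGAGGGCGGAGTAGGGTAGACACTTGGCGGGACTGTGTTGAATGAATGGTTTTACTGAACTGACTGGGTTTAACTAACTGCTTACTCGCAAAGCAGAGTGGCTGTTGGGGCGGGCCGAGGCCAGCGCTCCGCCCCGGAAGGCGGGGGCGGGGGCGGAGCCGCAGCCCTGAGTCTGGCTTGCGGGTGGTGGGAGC
Slc27a1: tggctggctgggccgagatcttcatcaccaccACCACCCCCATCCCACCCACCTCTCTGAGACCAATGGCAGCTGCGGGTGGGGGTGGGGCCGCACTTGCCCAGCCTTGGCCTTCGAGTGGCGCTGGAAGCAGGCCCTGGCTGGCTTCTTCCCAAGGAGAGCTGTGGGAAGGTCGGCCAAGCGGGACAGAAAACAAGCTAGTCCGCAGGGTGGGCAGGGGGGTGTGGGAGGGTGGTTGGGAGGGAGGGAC
Gpr179: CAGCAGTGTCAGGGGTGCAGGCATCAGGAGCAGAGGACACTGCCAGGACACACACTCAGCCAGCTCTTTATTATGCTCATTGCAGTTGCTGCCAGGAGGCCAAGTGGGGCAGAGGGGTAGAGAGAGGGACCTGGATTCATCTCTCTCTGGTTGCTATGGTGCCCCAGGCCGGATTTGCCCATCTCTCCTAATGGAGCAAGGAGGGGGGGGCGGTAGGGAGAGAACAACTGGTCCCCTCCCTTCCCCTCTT

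The targeted gene was a member of the set. The region at Tnfrsf12a (chromosome 17, 23677365 to 23677642, mm10) covered the gene's start and the bases in capitals above. Its peak had a −log10 p, the authors' measure of a peak's strength over the local background of its own library, of 13.6 and 8.02 in WT 1 and WT 2. The values were 10.0 and 19.4 under PLX chow and 24.5 and 25.3 under control chow. All 6 lay above the lowest value of any list, which was 2.85 in KO 1, 2.05 in KO 2 and 2.0 in each of the others. Ranked by the weakest of its 6 values, 8.02, this was the 44th of the 1586 regions. No peak of any library lay elsewhere in the gene (23675445 to 23677449), so the lists hold no other region that could check the deletion, and the nearest KO peak was 2458 bp away. Deleted DNA and closed DNA cannot be told apart in a peak list.

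As a check of the tissues, the promoter of Neurod6, a transcription factor gene of cortical and hippocampal excitatory neurons, had a peak in all 4 section libraries with a −log10 p of 28.0 to 42.1. In the dLGN it had a peak in 3 of 4 libraries, at 2.80 to 4.12. The promoter of Tcf7l2, a thalamic transcription factor gene, had a peak in all 8 libraries, at 23.1 to 44.3 in sections and 44.9 to 99.5 in dLGN. The promoter of Cx3cr1, a microglial receptor gene, had a peak in the 4 section libraries, at 3.69 to 6.04, and in no dLGN library of either diet. The lists held 248989 to 299822 peaks, and no list gives read depth. The KO lists were the longest, at 299822 and 299816 peaks, close to the limit of 300000 peaks set for a list. The next longest, control chow 1, held 285771. Whether the limit cut weak peaks from the KO lists was not tested.

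In the lists as deposited, absence from the KO libraries alone was about as common as absence from WT or PLX chow alone. This did not hold with lists of 1 length. Of the 79105 regions with a peak in each of the 6 other libraries, 2.0% had none in KO. By the same rule 1726 regions (2.17%) were absent only from WT, 1493 (1.94%) only under PLX chow and 404 (0.547%) only under control chow. With every list limited to its 192168 strongest regions the order of KO and WT turned, with 2152 regions absent only from KO and 1189 only from WT. Absent only under PLX chow were then 1123 and only under control chow 502. Absence from a single library of the group was far more common. Without KO 1 the rule took 5529 regions and without KO 2 it took 3816, while requiring 1 WT library in place of 2 gave 3895 without WT 1 and 4497 without WT 2.

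The KO-absent regions were weak. The weakest of the 6 values of a region had a median of 3.62 over the set, with quartiles of 2.83 and 4.80 and a highest value of 17.4. The same median was 11.7 over the 71365 regions with a peak in all 8 libraries. Among the KO-absent regions 1278 (80.6%) had a weakest value under 5 and 16 had one of 10 or more. Regions absent only from another group were about as weak. The median was 3.69 for WT, 3.48 for PLX chow and 3.22 for control chow, with 77.9%, 80.9% and 87.6% under 5. In 1344 regions (84.7%) the weakest library was a WT one, against 73.1% of the regions found in all 8. The share was 85.1% in the 6154 regions with a peak in the 6 other libraries and in a single KO library.

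Absence fell with strength in each group. With a weakest value of 2 to 3, 10.3% of regions were absent from KO and 11.1% of the corresponding regions from WT. The lowest listed value was 2.85 in KO 1 and 2.05 in KO 2 but 2.0 in both WT lists. Absence in this class was thus not judged at the same limit in the 2 groups. With 5 to 7 the shares were 2.10% and 2.61%. With 10 to 15 they were 0.156% (15 of 9594) and 0.154% (15 of 9751), and with 15 to 30 they were 1 of 12457 and 4 of 13034. No region of 30 or more was absent from any of the 4 groups. The share absent only from WT was the higher of the 2 in each class up to 30 except that of 10 to 15.

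**Figure D1:**
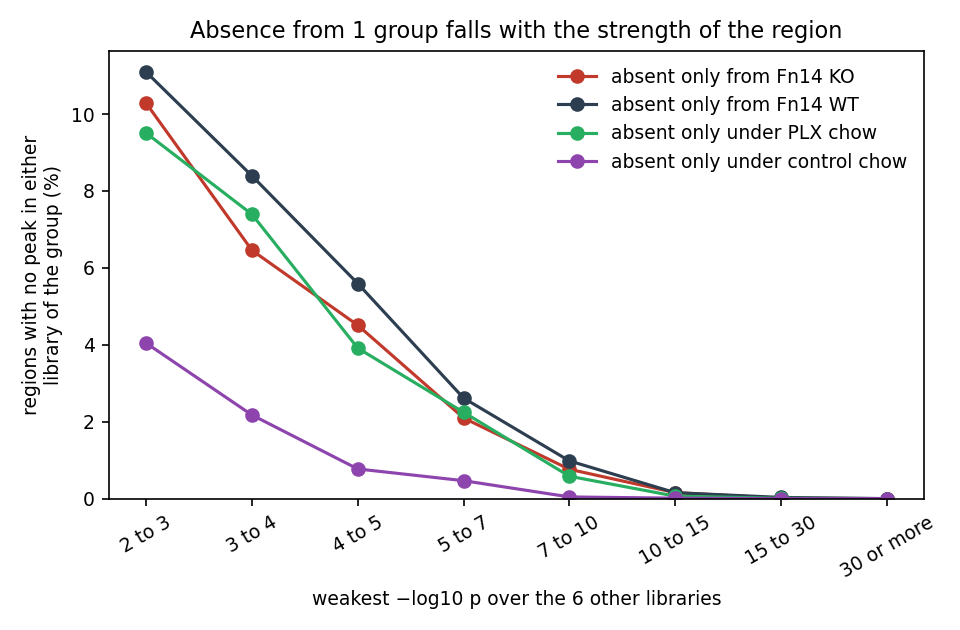
Share of regions with no peak in either library of a group (y axis, %) against the weakest −log10 p over the 6 other libraries (x axis, 8 classes), with 1 line per group. The lines for KO, WT and PLX chow lie close together, from 9.51% to 11.1% in the lowest class, and the line for control chow starts at 4.04%.

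Just outside the rule were 6154 regions with a peak in the 6 libraries and in a single KO library, 3926 in KO 1 and 2228 in KO 2. That peak had a median −log10 p of 7.24 in KO 1 and 5.5 in KO 2, and the lowest were 2.85 and 2.06. The weakest value over the 6 other libraries had a median of 4.01 in these regions, near the 3.62 of the regions just inside. The nearest KO peak lay a median of 2562 bp from a KO-absent region, and 439 of them (27.7%) had one within 1 kb. This distance was not measured for any other set, so no share stands beside the 27.7%.

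The strongest KO-absent region lay inside Gm2396, a predicted gene (chromosome 9, 88938383 to 88938854). Its −log10 p was 26.2 and 17.4 in WT, 45.0 and 27.8 under PLX chow and 35.7 and 29.0 under control chow. The nearest KO peak was 78983 bp away. The highest value of any KO-absent region in a WT library was the 26.2 found here.

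Each library was ranked over the same 79105 regions. Of the 15 strongest regions, 3 ranked higher in all 4 dLGN libraries than in both WT libraries, and 4 ranked lower. Over all regions ranked 23.4% and 27.1% did, so the split of the 15 was near that of all regions. The 3 were those at Cwc27 and Tmem14a and one on chromosome 18 with no gene within 50 kb. Near Cwc27, which encodes a spliceosome-associated protein, a region 2904 bp from the gene (chromosome 13, 104628093 to 104628380) had 14.0 and 14.1 in WT and 31.6 to 54.2 in the 4 dLGN libraries. In Tmem14a, 419 bp from a gene end (chromosome 1, 21229430 to 21229748), WT had 16.6 and 11.8 and dLGN 30.6 to 71.5. The WT and dLGN values did not overlap in these 2 regions. In Tox, the gene of a DNA-binding protein of the HMG-box family (chromosome 4, 6945061 to 6945333), WT had 14.7 and 11.9 and the dLGN 14.1 to 45.8, so that these overlapped. In Cttnbp2, whose protein binds cortactin in dendritic spines (chromosome 6, 18446411 to 18446703), WT had 13.2 and 11.2 and the dLGN 15.0 to 25.4.

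The 4 that ranked higher in WT were those at Elmod3, Arhgap6 and Fgfr4 and one on chromosome 10. In Elmod3 (chromosome 6, 72593411 to 72593754) all 6 values lay between 11.7 and 16.2. A region on chromosome 10 with no gene within 50 kb (103984302 to 103984607) had 11.3 to 15.1. In Arhgap6 (chromosome X, 168935530 to 168935763), WT had 22.7 and 14.2 and the dLGN 10.7 to 18.5. The others of the 15 strongest were inside Pcdh20 (a protocadherin gene), Adgrv1 (an adhesion receptor gene) and Larp1b (a La-related protein gene), and outside genes 3792 bp from Fgfr4 (a fibroblast growth factor receptor gene), 23188 bp from the casein gene Csn1s1, and on chromosomes 6 and 18 with no gene within 50 kb. Their values spanned 10.4 to 17.4 in WT and 11.1 to 76.9 in dLGN.

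**Figure D2:**
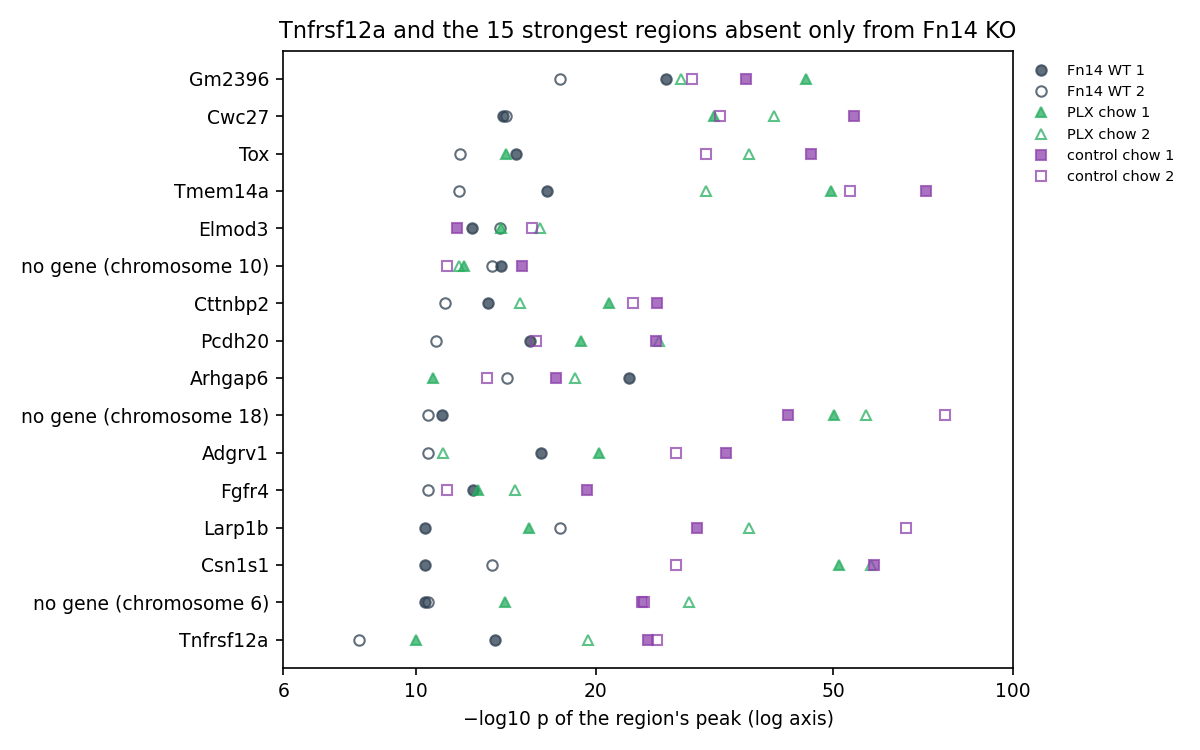
−log10 p (x axis, log scale) of Tnfrsf12a and the 15 strongest KO-absent regions in each of the 6 libraries (1 symbol per library), named by the assigned gene. The WT symbols lie between 8.02 and 26.2, and the dLGN symbols reach 76.9 in the region on chromosome 18.

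Over the whole set the KO-absent regions were weaker in WT sections than in the dLGN. In WT 1 the KO-absent regions had a median −log10 p of 4.97 (lowest 2.01, highest 26.2) and in WT 2 of 4.35 (2.0 to 20.0). In the dLGN the medians were 12.7 and 11.9 under PLX chow and 15.1 and 12.5 under control chow, with a highest value of 280. These values depend on the depth of each library, which is unknown. Each library was therefore also ranked over the same 79105 regions. The KO-absent regions had a median percentile of 8.59 and 10.6 in WT 1 and WT 2, 25.9 and 22.2 under PLX chow, and 22.0 and 22.7 under control chow, where 50 is the median of all regions ranked.

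By percentile, 673 of the 1586 regions (42.4%) had all 4 dLGN libraries above both WT libraries, and 69 (4.35%) had both WT libraries above all 4 dLGN libraries. Over all 79105 regions these shares were 23.4% and 27.1%. Among the 13619 regions found in all 8 libraries with a weakest value under 5 they were 25.4% and 24.7%. Both control chow libraries alone were above both WT libraries in 800 KO-absent regions (50.4%, against 29.0% of all) and below in 138 (8.70%, against 33.5%). The rule asks for no peak in KO sections, which share their tissue with the WT sections, so nothing is read from this direction about the genotype. With the genotypes exchanged the direction was the same. Of the regions absent only from WT 30.5% had the dLGN above both KO libraries and 7.82% the reverse, where 26.7% and 28.8% of all regions did. The difference between the 2 sets was not tested. In bulk tissue, fewer cells of a type and less accessible DNA per cell cannot be told apart.

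**Figure D3:**
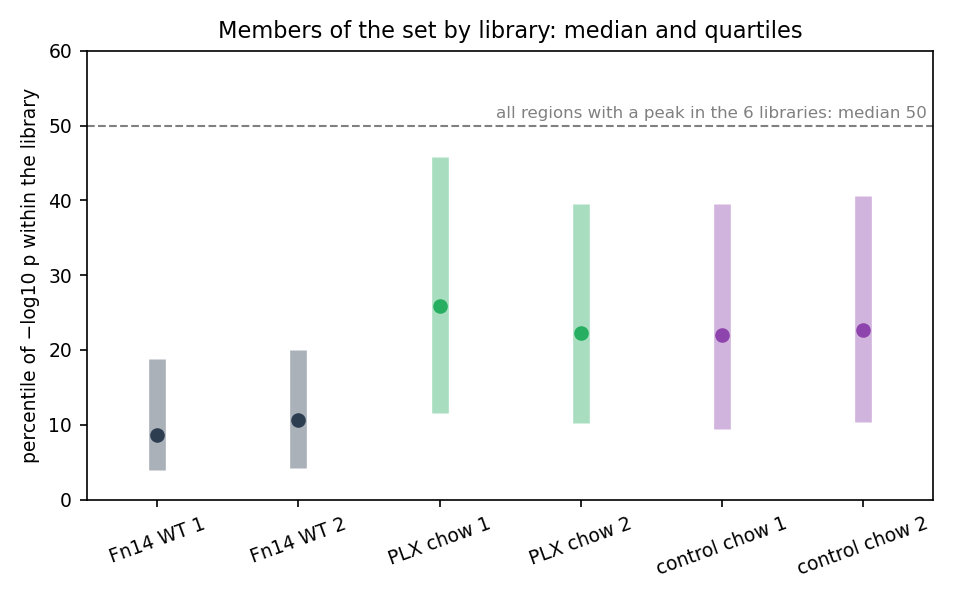
Percentile of the KO-absent regions (y axis) in each of the 6 other libraries (x axis), ranked over 79105 regions, with the median as a point and the quartiles as a bar. The medians are 8.59 and 10.6 in WT and 22.0 to 25.9 in dLGN, all below the 50 of all regions ranked.

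Strong dLGN peaks made up a smaller share of the KO-absent regions than of all regions. A −log10 p of at least 30 in all 4 dLGN libraries was found for 158 of them (9.96%), against 32394 of the 79105 regions (41.0%). The limit of 50 was passed by 67 (4.22%), against 22212 (28.1%). The 5 with the highest weakest dLGN value, named after their values were seen, lay outside genes. A region 4407 bp from St8sia6, the gene of a sialyltransferase (chromosome 2, 13646302 to 13646921), had 127 to 198 in the dLGN and 7.20 and 5.36 in WT. A region on chromosome 1 with no gene within 50 kb (145545405 to 145546082) had 150 to 280 in the dLGN and 9.05 and 4.27 in WT. The other 3, on chromosomes 4, 8 and 18, had no gene within 50 kb. In these 5 regions the WT values were 4.27 to 10.5, far below every dLGN value.

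The diets were compared by percentile too. Both control chow libraries ranked above both PLX chow libraries in 183 regions (11.5%), and both PLX chow libraries above both control chow libraries in 318 (20.1%). Over all 79105 regions these shares were 15.9% and 15.7%. The weak regions found in all 8 libraries had 14.6% and 17.5%, with PLX chow the higher of the 2 as in the KO-absent regions.

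The share inside genes was lower for KO-absent regions than for the other sets, and the share far from any gene was higher. The centre of 794 of them (50.1%, exact Clopper-Pearson 95% interval 47.6 to 52.6) lay inside a protein-coding gene, and 483 (30.5%, 28.2 to 32.8) had no such gene within 50 kb. Of the regions absent only from WT, 60.4% (58.0 to 62.7) were inside a gene and 17.3% (15.5 to 19.1) had none within 50 kb. Regions absent only under PLX chow or control chow stood at 59.1% and 57.4% inside a gene. Among the weak regions found in all 8 libraries (weakest value under 5) the shares were 60.9% inside a gene and 18.8% with none within 50 kb. KO-absent regions under the same limit had 50.3% and 31.2%, so that the gap was as large among weak regions. These intervals cover the counting of regions only, and neighbouring regions are not independent. With the lists limited to 1 length, the gap inside genes was smaller, at 52.2% of KO-absent and 57.9% of WT-absent regions, and 29.5% and 18.7% had no gene within 50 kb. Without KO 1 the shares were 54.5% and 58.3% inside genes, and 26.9% and 21.7% with no gene within 50 kb.

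Gene ends, which are starts or 3′ ends because the gene table gives no strand, were seldom near. Within 1 kb of a gene end lay 44 of the KO-absent regions (2.77%, 2.02 to 3.71), 4.58% (3.64 to 5.67) of the WT-absent regions, 5.98% of the weak regions found in all 8 libraries and 19.6% of all regions found in all 8. The intervals for KO-absent and WT-absent regions overlapped a little. With peaks reduced to 200 bp around their summits the KO-absent share was 4.83% and the WT-absent share 7.10%.

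**Figure D4:**
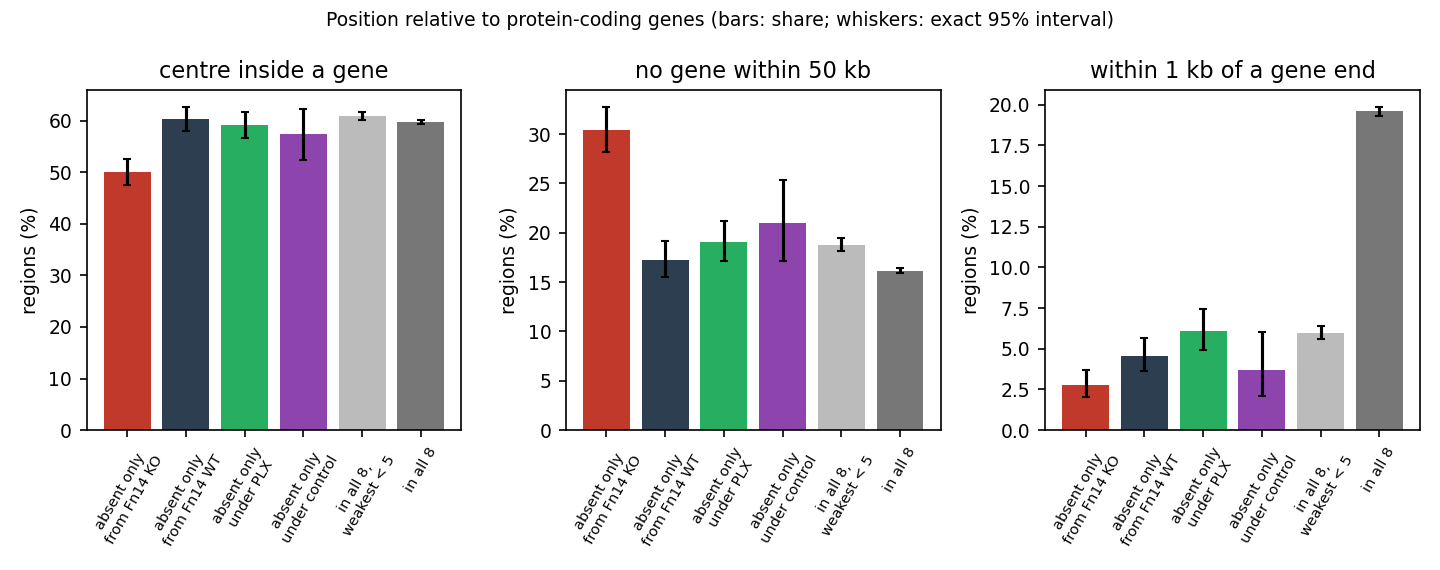
Share of regions (y axis, %) whose centre lay inside a protein-coding gene, that had no gene within 50 kb, and that lay within 1 kb of a gene end, for 6 sets of regions (x axis), with exact 95% intervals. The KO-absent bar is the lowest for regions inside genes (50.1%) and the highest for regions without a gene within 50 kb (30.5%).

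The rate of KO-absent regions also differed between chromosomes, and was lower on gene-dense ones. Per 1000 regions with a peak in the 6 other libraries, KO-absent regions numbered 26.7 on chromosome 18 and 26.6 on chromosome 15, and 11.8 on chromosome 19, 12.7 on chromosome 7 and 13.2 on chromosome 9. WT-absent regions ran the other way, with 20.5 on chromosome 18, 27.2 on chromosome 19, 28.4 on chromosome 7 and 30.6 on chromosome 17. Across the 20 chromosomes other than Y, the density of protein-coding genes had a Spearman rank correlation of −0.72 (Pearson r −0.76) with the KO-absent rate and 0.70 (r 0.74) with the WT-absent rate. These are descriptions over chromosomes that share their libraries. In the alternatives tried, the rank correlation ranged from −0.58 without KO 1 to −0.80 without KO 2 for the KO-absent rate.

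**Figure D5:**
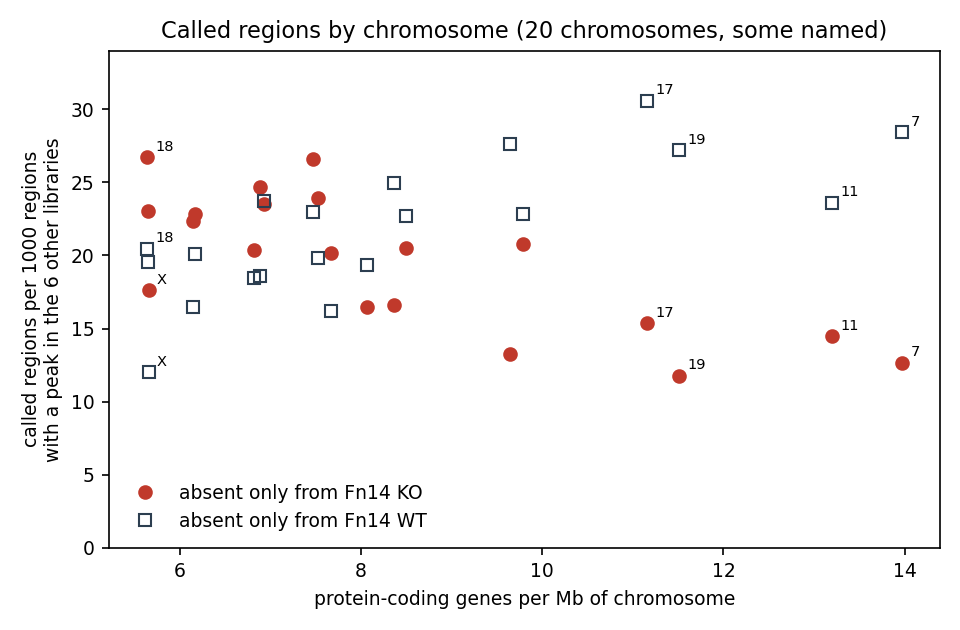
Called regions per 1000 regions with a peak in the 6 other libraries (y axis) against protein-coding genes per Mb (x axis), 1 point per chromosome and set. KO-absent rates fall from 26.7 on chromosome 18 to 12.7 on chromosome 7, and WT-absent rates are higher on chromosomes 7, 11, 17 and 19 than on chromosomes 18 and X.

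Chromosome 17, which holds the deleted gene, had 40 KO-absent regions of 2604, or 15.4 per 1000. Within 10 Mb of Tnfrsf12a there were 5 of 555 including its own, or 9.01 per 1000. This rate was lower than the 15.4 per 1000 of the whole chromosome and lower than the 2.0% over all chromosomes. WT-absent regions were not counted in this window. The other 4 were assigned to Wdr27, Zfp213, Ilrun and Fgd2. The region 13757 bp from Zfp213, a zinc finger gene (23542854 to 23543166), had 4.79 and 4.63 in WT and 26.7 to 58.4 in the dLGN. At Fgd2, the gene of a guanine nucleotide exchange factor (29381520 to 29381798, 2124 bp from the gene), WT had 8.42 and 9.78 and the dLGN 3.88 to 7.68.

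The 44 regions at gene ends were led by Tmem14a, described above, and by Cct2, the gene of a chaperonin subunit (chromosome 10, 117051320 to 117051854). There WT had 10.2 and 10.3 and the dLGN 9.33 to 36.9. The Tnfrsf12a region was the 4th strongest of them. Slc27a1, the gene of a fatty acid transporter (chromosome 8, 71568653 to 71569037), had 11.7 and 7.61 in WT, 7.35 and 9.94 under PLX chow and 19.7 and 16.3 under control chow. Gpr179, an orphan receptor gene known from retinal bipolar cells (chromosome 11, 97352263 to 97352692), had 10.8 and 5.26 in WT and 8.79 to 18.2 in dLGN. The remaining 5 of the 10 strongest were at Siah3, Phkb (a subunit of phosphorylase kinase), Mmp16 (a membrane-bound metalloproteinase), Acsm3 (an acyl-CoA synthetase) and Zfp787. Of these, Phkb stood apart by its dLGN values of 40.6 to 61.8, against 6.04 and 7.77 in WT.

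Of the 32851 RefSeq start windows, 19 overlapped a KO-absent region, at 19 regions (1.20%, exact 95% interval 0.723 to 1.86). The share of regions that overlapped a start window was 1.51% (0.986 to 2.20) of WT-absent regions, whose interval overlaps, 3.28% of those absent only under PLX chow and 0.743% of those absent only under control chow. It was 3.53% of the weak regions found in all 8 libraries and 16.5% of all regions found in all 8. Apart from the 3 genes shown, the 19 windows included starts of Nkx2-2 (a homeobox gene of oligodendrocyte and neural development), Mid1 (a ubiquitin ligase gene), Slco1a5 (an organic anion transporter gene), Pls3 (an actin-bundling protein gene), Otoa, Tmem182, Slc18a2 (a vesicular monoamine transporter gene) and 9 genes known by clone-like or antisense names. At Nkx2-2 (chromosome 2, 147186249 to 147186459) WT had 7.61 and 5.99 and the dLGN 7.18 to 23.2. The 250 bases before these 19 starts had a median of 2 CpG dinucleotides (0 to 15) and a GC content of 46.8%. The medians were 7.5 and 55.8% for the 28 starts at WT-absent regions and 16 and 60.4% for the 15378 starts at regions found in all 8 libraries. Tnfrsf12a, with 15 CpG, was the richest of the 19.

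Sequence motifs were searched on both strands of the same 250 bases. The GC box GGGCGG, which Sp1 and related proteins bind, was found in 5 of the 19 starts (26.3%, against 32.7% of all starts), among them Tnfrsf12a and Gpr179. The CCAAT box CCAAT was found in 3 (15.8%, against 33.9%), among them Slc27a1. The AP-1 motif TGANTCA was found in 1 (5.26%, against 6.75%), the NF-kB motif in 1 (5.26%, against 7.25%) and the cAMP response element TGACGTCA in 0 (against 1.55%). The E-box CACGTG was found in 2 (10.5%, against 6.02%) and the TATA motif TATAAA in 2 (10.5%, against 12.4%). No motif of these 7 contains another. Such matches describe letters and show no binding.

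In the TWEAK, Fn14 and NF-kB list of 30 genes, 2 genes had a KO-absent region. Besides the receptor itself this was Birc3, which encodes the ubiquitin ligase cIAP2, with a region 29322 bp from the gene (chromosome 9, 7902330 to 7902724). Its −log10 p was 3.97 and 2.0 in WT, 4.37 and 8.53 under PLX chow and 3.43 and 8.21 under control chow, so that WT 2 lay at the threshold. Of the 104 regions at these genes with a peak in the 6 other libraries, 2 (1.92%) were KO-absent, 99 had a peak in all 8 libraries and the remaining 3, at Traf3, Tab1 and Tab2, had a peak in a single KO library. The single region of the ligand gene Tnfsf12, the 15 regions of Nfkb1 and the 10 of Nfkbia, which encodes an NF-kB inhibitor, kept peaks in both KO libraries.

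Inhibitory neuron genes had the highest share of KO-absent regions among the 13 lists. Of the 134 regions at these 20 genes with a peak in the 6 other libraries, 9 (6.72%) were KO-absent, where 2.0% of all regions were. They lay at 6 of the 20 genes, and the others, among them Gad1, Slc32a1, Lhx6, Sst, Pvalb and Vip, had none. Apart from Gad2 (72863 bp), the 6 genes were longer than 166 kb, the median of genes that held the centre of a KO-absent region. The 8 regions other than that in Erbb4 were named after their values were seen. By comparison, 2 of 119 regions (1.68%) at the 20 genes were absent only from WT. Out of all KO-absent regions the count was 9 of 1586, or 0.567%, where these genes held 0.169% of all 79105 regions. It was 9 of 2152 with lists of 1 length, 6 of 1305 with a q-value limit of 0.05, 24 of 5529 without KO 1 and 12 of 3816 without KO 2. In these alternatives the list's regions with a peak in the other libraries were not counted, so no share to set beside the 6.72% is given. Without KO 2 the WT-absent count rose to 13 of 6275.

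The inhibitory neuron regions were weak. In Gad2, an enzyme of GABA synthesis (chromosome 2, 22634791 to 22635064), WT had 5.49 and 5.36 and the dLGN 5.89 to 16.6. In Erbb4, the neuregulin receptor gene (chromosome 1, 68773313 to 68774074), WT had 5.49 and 5.36 and the dLGN 10.5 to 19.5. In Sox6, which is also in the oligodendrocyte precursor list, a transcription factor gene of interneurons from the medial ganglionic eminence (chromosome 7, 115598298 to 115598894), WT had 3.5 and 2.83 and the dLGN 23.3 to 35.7. Reln, which encodes the secreted protein reelin, had 2 regions, of which that at 22043094 to 22043444 on chromosome 5 had 3.97 and 4.80 in WT and 20.1 to 35.2 in the dLGN. Adarb2, a marker of interneurons from the caudal ganglionic eminence, and Nxph1, a neurexophilin gene, had 2 regions each. None of the 9 had a WT value above 7.20.

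Thalamic neuron genes had 6 KO-absent regions of 173 (3.47%), 1 each at Zic1, Zic4, Foxp2, Ntng1, Cdh6 and Kcnc2, beside 9 of 175 (5.14%) absent only from WT. The 5 regions other than that at Zic1 were named after their values were seen. At Zic1, a zinc finger transcription factor gene (chromosome 9, 91350487 to 91350731, 7449 bp away), WT had 6.79 and 4.34 and the dLGN 5.08 to 10.8. In Zic4, its neighbour, WT had 6.25 and 4.17 and the dLGN 14.4 to 23.5. Synapse genes had 8 of 404 (1.98%), against 22 of 454 (4.85%) absent only from WT. The strongest of the 8 lay in Cntnap2, a neurexin-family gene (chromosome 6, 45209475 to 45209963), with 6.04 and 7.14 in WT and 13.2 to 39.1 in the dLGN.

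The other lists had shares of 2.13% or less. Cortical and hippocampal excitatory genes had 1 of 167 (0.599%), in Bcl11b, against 10 of 191 (5.24%) absent only from WT. Activity-regulated genes had 1 of 130 (0.769%), 41839 bp from Fos, with 2.93 and 6.53 in WT and 3.91 to 9.16 in the dLGN. Astrocyte genes had 2 of 127 (1.57%), the stronger in the glutamate transporter gene Slc1a2 (8.84 and 5.38 in WT, 9.42 to 13 in the dLGN). Oligodendrocyte precursor genes had 3 of 166 (1.81%), the strongest in Pcdh15, and endothelial and mural genes had 1 of 70 (1.43%), in the glucose transporter gene Slc2a1, against 4 of 69 (5.80%) absent only from WT, the highest WT-absent share of the 13 lists. Oligodendrocyte (103 regions), circadian clock (127) and housekeeping genes (39) had 0, where 3, 6 and 0 regions were absent only from WT. Microglial genes had 1 of 47 (2.13%), 20056 bp from Sall1, a microglial transcription factor gene, with 7.8 and 5.93 in WT, and a KO peak lay 83 bp from it. That region had 7.57 and 13.9 under PLX chow and 23.9 and 7.22 under control chow.

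Most genes with a KO-absent region had only 1. The 1103 regions with a gene within 50 kb belonged to 958 genes, of which 837 had 1 region and 17 had 3 or more. Such counts are not given for the other sets, so this spread is not called particular to KO-absent regions. Fhit, a very long gene of a nucleotide hydrolase (1612 kb), had 6, beside 31 regions found in all 8 libraries and 0 absent only from WT. Ptprd, a receptor phosphatase gene of synapse formation (2271 kb), had 4 KO-absent and 4 WT-absent regions, beside 40 found in all 8 libraries. Trio (a guanine nucleotide exchange factor gene), Atg5 (an autophagy gene) and Zfp521 (a zinc finger gene) had 4 each, with 1, 2 and 0 WT-absent regions. They held 32, 9 and 17 regions found in all 8 libraries. These genes were named after their counts were seen. Genes that held the centre of a KO-absent region had a median length of 166 kb, against 103 kb for regions found in all 8 libraries.

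Open chromatin next to the KO-absent regions was asked about separately, since those neighbours were not chosen by the rule. They share libraries and stretches of chromosome with the KO-absent regions, so they are not independent of them. Regions with a peak in all 8 libraries were ranked in each library, and 1229 of them lay within 10 kb of a KO-absent region. Their median percentile was 41.9 and 44.7 in the KO libraries and 46.5 and 46.6 in the WT libraries. The median difference of KO minus WT within a region was −0.94 percentile points (quartiles −8.29 and 5.12), and over all 71365 regions it was −0.11 (−6.58 and 6.18). Both KO libraries were below both WT libraries in 299 neighbours (24.3%), where 20.8% of all regions were, and above in 204 (16.6%), where 20.2% were. Neighbours of WT-absent regions had a median difference of 0.07. Over the 5515 regions within 50 kb of a KO-absent region it was −1.06, so it was not limited to the closest neighbours. The difference near KO-absent regions was larger with KO 1, at −1.91 without KO 2 and −0.54 without KO 1. It was small beside the spread between regions, and 2 libraries against 2 cannot pass 0.05 in an exact permutation test, whose smallest 2-sided p is 0.333.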

How the data were processed

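Peak lists of 8 ATAC-seq libraries were used, as deposited by the authors. Per the deposited instructions, paired-end reads were processed on mm10 by the ENCODE ATAC-seq pipeline (multimapping 0, p threshold 0.01). The deposited list names also record trimming, a Tn5 step, a cap of 300000 peaks per list and filters for duplicate and mitochondrial reads. Peaks were called per sample. The submitters' processing notes name deepTools 3.5.0 with no role. Aligner and peak caller: not given in the sources used here. The deposited columns were a score, the fold over local background (a ratio), −log10 of the p-value and of the q-value, and the summit. These are the authors' values for each peak, and here the −log10 p only described, ranked or filtered peaks. No read counts were used, so depth is unknown.

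Peaks sharing at least 1 bp were merged over all libraries, and a region kept the highest −log10 p of each library. A region belonged to the protein-coding gene nearest to its centre, overlap first, within 50 kb (21887 genes of RefSeq, GRCm38.p6). All 30 TWEAK pathway genes and all genes of 12 further lists matched by symbol. Percentiles ranked each library over the same regions. The merging and the rule were tested on simulated lists. Analyses ran in Python 3.11.15 with pandas 2.3.3 and scipy 1.17.1.

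The KO-absent regions, lists and comparisons were chosen with earlier results of these data known. Named regions were Tnfrsf12a, the 15 with the highest weakest −log10 p, the 10 strongest within 1 kb of a gene end, all at pathway genes, the strongest per other list, and all within 10 Mb of Tnfrsf12a. Others are marked in the text. No test of presence was made, because the rule used it, and regions are not replicates.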

Additional observations from a re-analysis of the deposited data

How the results depend on the processing

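Tnfrsf12a stayed a KO-absent region in all 15 alternatives of merging, threshold, list length and left-out libraries. Counts of regions rise when a library is left out, because the rule then asks for less. With each library left out in turn, the count ranged from 1652 to 5529 for KO-absent regions, 1863 to 6275 for WT-absent, 1623 to 4161 for PLX chow and 457 to 1797 for control chow. The last was 256 when presence needed a q-value of 0.05 or less. The KO-absent count was 1124 to 2152 in the 7 alternatives that kept all libraries. With a library left out, the median weakest value was 3.5 to 4.16, the share inside a gene 47.8% to 54.5%, the share within 1 kb of a gene end 2.84% to 3.33%, and the share without a gene within 50 kb 26.9% to 32.9%. The share within 1 kb of a gene end was 4.83% with 200 bp around each summit. The share with the dLGN above both WT libraries was 52.8% without KO 1 and 34.9% without KO 2, where 23.4% of all regions ranked had it both times. Leaving out a WT or dLGN library also makes separation easier. The share was 49.7% without WT 1 (32.1% of all) and 53.9% without WT 2 (32.5% of all). Without a dLGN library it was 43.9% to 45.6% (25.4% to 25.6% of all). When presence needed a q-value of 0.05 or less it was 39.7% (23.4% of all). The neighbours' difference ranged from −1.91 to −0.54 with a library left out and was −1.06 within 50 kb. The labels do not say that replicate numbers mark a pair. Deviations of same-numbered KO and WT libraries had a correlation of 0.16 over 71365 regions, and the replicate block gave the same −0.94, as an average over pairs must. No blocked fit of the counts was possible because they come from no test. The cause of the other shifts was not tested. KO 1 had the highest list minimum (2.85). With that minimum applied to all lists, 1268 regions were KO-absent and 1843 WT-absent. With lists of 1 length the order turned, to 2152 and 1189. Unknown depth limits every statement of absence.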
